A study of Mus musculus with 42 samples.

Results

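The Illumina TruSeq RNA kit was run at 2 amounts of the same mouse liver RNA, and the comparison described here is that of the input (whole tissue) libraries made from 4 ng (Tru4) with those made from 70 ng (Tru70). Of the 42 libraries in the series, 6 belong to it, 3 at each amount, and they were chosen by their labels. The exception is the library of mouse 3 at 4 ng, for which the library labelled IP was used, since the study's own listing of features per library gives the input and IP libraries of that mouse in exchanged places. All mice carried Gfi1Cre/+ with Rpl22HA/HA, that is a Cre recombinase placed at the Gfi1 gene and a ribosomal protein L22 allele that gains an HA tag where Cre has acted, so the groups share both alleles and no untagged control entered the comparison. The age is given as 1 day in the sample characteristics and as 30 days in the growth protocol, and it is the same for both amounts. Aliquots of the RNA of each of 3 mice were used at both amounts, so each mouse was its own control. With the mouse as block, the p-values set the difference between amounts against its variation over the 3 mice. The 4 ng protocol also differed from the 70 ng protocol in reaction volumes, in the number of PCR cycles and in the absence of a size selection. The effects of these steps and of the RNA amount cannot be told apart.

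The TruSeq kit captures RNA with poly(A) tails on oligo(dT) beads, fragments it, and copies it from random primers before adapters are ligated and the library is amplified. Most messenger RNAs carry such tails. Ribosomal RNA, small structured RNAs and many nuclear RNAs do not, and mitochondrial messages carry only short ones. Amplification by PCR is known to depend on fragment length and on base composition. Gene classes that differ in these properties are therefore described in turn.

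The totals of gene counts ranged from 25797283 to 45466334 per library. The identity of the exchanged library was checked with marker genes. In the library labelled IP of mouse 3, the summed level of 9 erythroid genes was 1366 counts scaled to a common library total (CPM, the gene's share of all gene counts), beside 1507 to 1744 CPM in the other Tru4 input libraries. In the libraries used as Tru4 IP, which include the library labelled input of mouse 3, the sum was 129558 to 210483 CPM. The 14 Kupffer cell genes summed to 655 to 665 CPM in the Tru4 input libraries and to 20903 to 30398 CPM in the Tru4 IP libraries. The 30 secreted plasma protein genes, which mark hepatocytes, summed to 244589 to 273524 CPM in Tru4 input and 244728 to 265614 CPM in Tru70 input. Across all genes, its Spearman correlation was 0.931 with both other Tru4 input libraries and 0.899 to 0.909 with the libraries labelled Tru4 IP of mice 1 and 2. With the fractions as labelled, no gene passed the test below in either direction (edgeR quasi-likelihood test, adjusted p under 0.05), while 927 of 15153 genes had an unadjusted p under 0.05. Without mouse 3 altogether, 717 genes were higher and 908 lower.

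The comparison asks how the transcript profile shifts when less RNA is taken. Of 14991 genes tested, 1020 were higher in Tru4 (6.8% of the genes tested) and 1316 were lower (8.78%), which together is 15.6% (edgeR quasi-likelihood test with the mouse as block, Benjamini-Hochberg adjusted p under 0.05). Most of the shifts were small. At least 2-fold differences were found for 156 genes higher in Tru4 (1.04%) and 52 genes lower (0.347%). The median log2 change was 0.58 among the genes that rose and -0.42 among the genes that fell. The genes that rose had a median exonic GC content of 44.5% and a median longest transcript of 3962 bases, and those that fell had 53.3% and 2062 bases, beside 49.5% and 3065 bases over all genes tested. All 156 genes of the first 2-fold set and 51 of the 52 of the other set moved the same way in each of the 3 mice. The sets were selected by a test on these same mice, so this largely follows from the selection. Over all genes tested, 46.0% moved the same way. Without the mouse as block, 65 genes were higher and 82 lower. With limma on log2(RPKM + 1), which centres the changes at another level, 363 genes were higher and 1724 lower of 7161 tested.

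**Figure D1:**
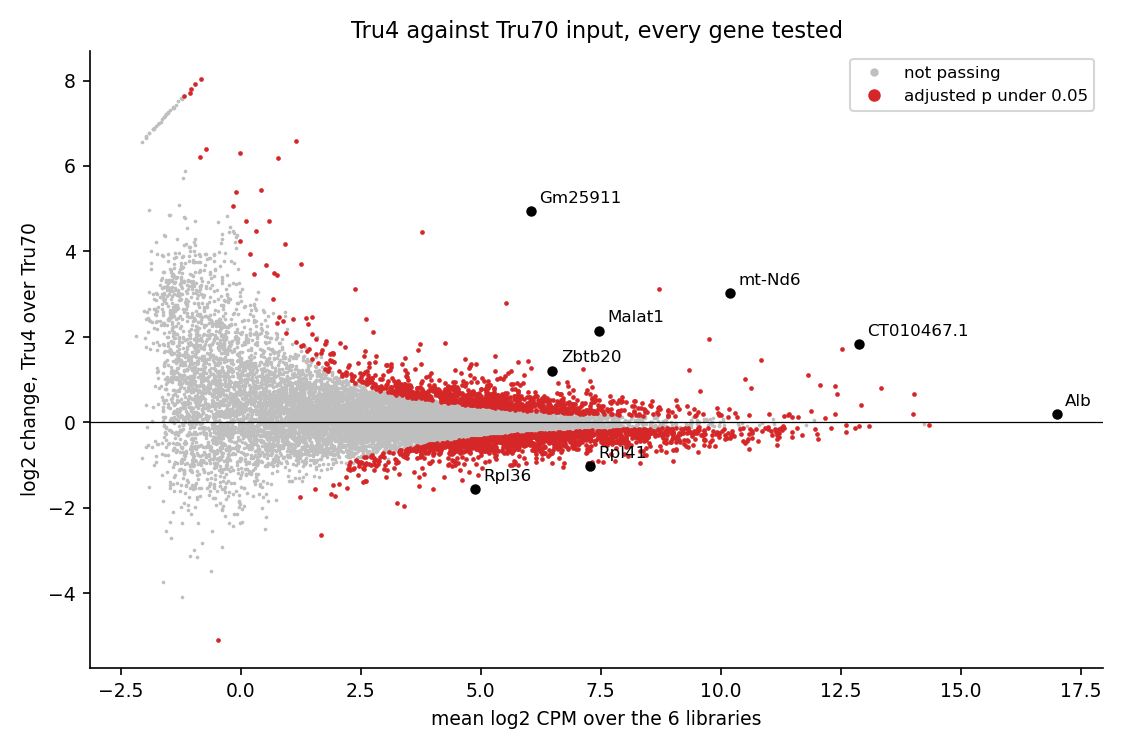
Log2 change from Tru70 to Tru4 input (vertical axis) against the mean log2 CPM over the 6 libraries (horizontal axis), 1 point per gene tested and red for an adjusted p under 0.05, with named genes as black points. The passing genes lie on both sides of 0, 1020 above and 1316 below, and Gm25911, mt-Nd6, Malat1 and CT010467.1 lie above the bulk of genes of like level.

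Among the 10 genes with the largest rise that had a mean of at least 10 CPM, 4 are annotated as miRNA genes and share nearly the same sequence. Their sequences are shown because reads of such copies cannot be assigned with certainty. They are read from the GENCODE M21 transcripts on GRCm38, 5′ to 3′, and capitals mark the bases substituted relative to Gm23935. Gm24245, which carries the same bases as Gm23935 and Gm24270, is given for comparison.
Gm23935: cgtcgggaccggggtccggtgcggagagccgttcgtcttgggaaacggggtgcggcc
Gm24270: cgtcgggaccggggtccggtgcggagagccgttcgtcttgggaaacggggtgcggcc
Gm24245: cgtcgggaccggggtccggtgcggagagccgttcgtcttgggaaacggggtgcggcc
Gm24187: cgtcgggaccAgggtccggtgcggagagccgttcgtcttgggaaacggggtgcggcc
Gm25911: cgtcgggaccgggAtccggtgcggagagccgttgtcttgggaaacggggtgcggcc

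These genes are single short exons of 56 to 57 bases, at chr16:11144125-11144181 (plus strand) for Gm23935, chr9:56223715-56223771 (minus) for Gm24270, chr4:139338304-139338360 (plus) for Gm24245, chr13:9834469-9834525 (minus) for Gm24187 and chr1:167340369-167340424 (minus) for Gm25911. Counted from 1 at the 5′ end of Gm23935, Gm24187 differs by G11A. Gm25911 differs by G14A and lacks base 34. None of the 5 whole sequences, in either orientation, occurred without a mismatch in the transcripts of CT010467.1, an annotated rRNA gene. Partial matches and the genome outside annotated transcripts were not searched, so an origin from rRNA was not tested. The counts leave out reads with more than 1 alignment, so the values below are those of reads that the aligner placed in a single copy.

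Gm25911 reached 165, 87.7 and 127 CPM in the Tru4 libraries of mice 1 to 3 and 6.82, 2.19 and 4.17 CPM in Tru70, a log2 change of 4.94 ± 0.13 (SE, edgeR adjusted p = 1.41e-20). Gm24270 reached 980, 545 and 657 CPM in Tru4 and 214, 31.8 and 80.2 CPM in Tru70 (log2 change 3.11 ± 0.18 SE, edgeR adjusted p = 7.35e-13). In Gm24187 and Gm23935 the log2 changes were 2.80 and 1.96. The groups did not overlap in any of these 4 genes, but the genes were chosen for large changes in the same direction in each mouse. As near copies, they are not independent of each other. The level also differed between the mice at each amount, and mouse 1 was highest and mouse 2 lowest in both. Over all genes annotated as miRNA, 14 of 2207 passed the filter on low counts. Of these, 6 were higher (42.9%, beside 6.8% of all genes tested) and 0 were lower. Their median log2 change was 1.35, beside 0.05 over all genes tested. They took 0.243% ± 0.0918 of the counts in Tru4 and 0.0686% ± 0.0592 in Tru70 (SD, n = 3).

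Nuclear rRNA moved in the same direction. CT010467.1 on chromosome 17 was the only rRNA gene of 354 that passed the filter, and it reached 15988, 7579 and 10400 CPM in Tru4 and 6591, 1426 and 3167 CPM in Tru70 (log2 change 1.83 ± 0.10 SE, edgeR adjusted p = 3.15e-13). Again mouse 1 was highest and mouse 2 lowest at both amounts, while Tru4 lay above Tru70 in each mouse. The antisense gene Gm15564 on chromosome 16 varied over the mice in the same order, with 1298, 480 and 826 CPM in Tru4 and 757, 148.7 and 380 CPM in Tru70, and rose by 1.22 on the log2 scale (SE 0.09). Rpph1, the RNA subunit of RNase P, which has no poly(A) tail, reached 18.5, 4.51 and 3.93 CPM beside 3.29, 0.533 and 0.218 CPM (log2 change 3.13 ± 0.37 SE, edgeR adjusted p = 6.58e-07). Rn7sk, a small nuclear RNA that holds back transcription elongation, rose by 0.67 on the log2 scale (SE 0.20), with groups that overlapped.

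The reads that were not assigned to a gene also differed. Reads on no feature made up 7.91%, 6.22% and 6.68% of the reads with a single alignment in Tru4 and 5.44%, 3.18% and 3.82% in Tru70. For every 100 such reads there were 24.8 to 29.1 alignments reported as not unique in Tru4 and 19.4 to 24.1 in Tru70. Both were higher in Tru4 in 3 of 3 mice, and the exact sign-flip permutation test over 3 mice (two-sided) gave p = 0.25, the smallest value that this design allows. The same p applies to each share of counts below in which all mice moved alike. Their part in the results on genes was not tested.

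**Figure D2:**
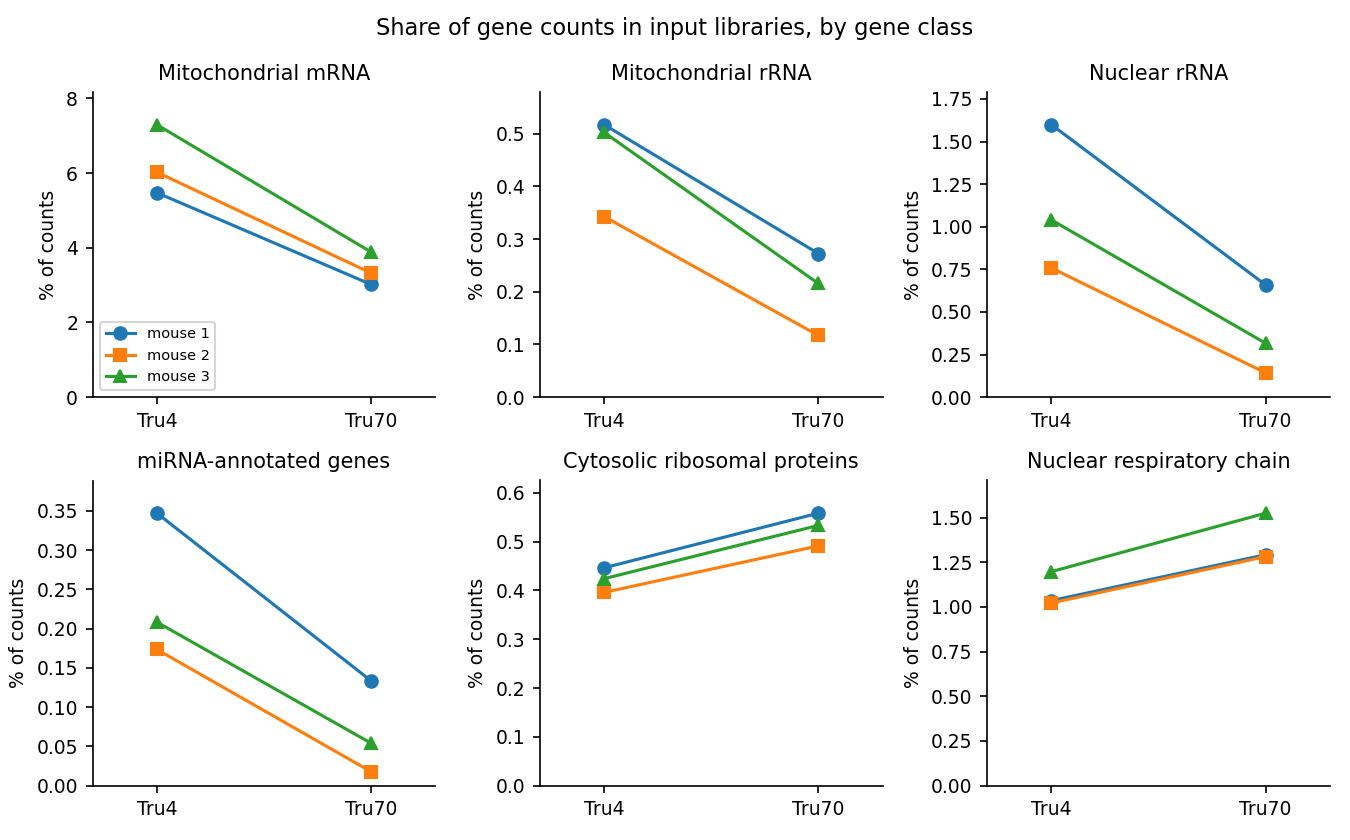
Percent of all gene counts (vertical axis, from 0) taken by 6 gene classes in the Tru4 and Tru70 input libraries, with a line for each mouse. Mitochondrial mRNA and rRNA, nuclear rRNA and miRNA-annotated genes fall from Tru4 to Tru70 in each mouse, and the cytosolic ribosomal protein and nuclear respiratory chain genes rise.

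Mitochondrial transcripts gained the most reads among the classes examined. The 13 messages encoded in mitochondrial DNA, which specify subunits of the respiratory chain and ATP synthase, took 5.47%, 6.02% and 7.29% of the counts in Tru4 and 3.02%, 3.32% and 3.89% in Tru70. Every Tru4 library lay above every Tru70 library. The mitochondrial rRNAs took 0.454% ± 0.0967 in Tru4 and 0.202% ± 0.0786 in Tru70 (SD, n = 3), again higher in 3 of 3 mice. In turn, nuclear protein-coding genes held 88.8% ± 0.979 of the counts in Tru4 and 92.4% ± 0.553 in Tru70.

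Of the 13 messages, 8 passed the filter, 7 were higher in Tru4 (87.5%, beside 6.8% of all genes tested) and 0 were lower, with a median log2 change of 0.97. With the fractions as labelled this median was -0.04, and the library labelled input of mouse 3 had 0.721% of its counts in these messages. The size differed among the messages. mt-Nd6, a complex I subunit and the only message of the opposite strand, reached 1874, 1713 and 2594 CPM in Tru4 and 280, 199 and 292 CPM in Tru70 (log2 change 3.03 ± 0.05 SE, edgeR adjusted p = 4.81e-24). mt-Nd2, also of complex I, followed with 7449, 8768 and 10452 CPM beside 2426, 2700 and 3145 CPM (log2 change 1.71 ± 0.02 SE, edgeR adjusted p = 1.14e-26). For mt-Nd5, which overlaps mt-Nd6 at its end, the log2 change was 1.10. It was 0.84 for mt-Nd1, 0.81 for mt-Cytb of complex III, 0.67 for mt-Co1 of complex IV and 0.66 for mt-Nd4. Reads were not separated by strand in these libraries, so reads of mt-Nd6 and of transcripts from the other strand at that place cannot be told apart.

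The other messages had few counts, at most 1.39 CPM in any library. mt-Atp6, mt-Atp8, mt-Co3, mt-Nd3 and mt-Nd4l did not pass the filter, and mt-Co2 passed it with at most 1.01 CPM and did not pass the test (edgeR adjusted p = 0.361). In the deposited RPKM (reads scaled by transcript length and library size), which come from another counting step, these genes were abundant. mt-Atp8 was at 11880, 15998 and 19347 RPKM in Tru4 and 2483, 3308 and 3765 RPKM in Tru70, and all Tru4 values lay above all Tru70 values. mt-Co3 was at 7419 to 9116 RPKM in Tru4 and 7293 to 8970 RPKM in Tru70, and these ranges overlapped. On the log2(RPKM + 1) scale the change was 2.30 for mt-Atp8, 0.94 for mt-Nd3, 0.91 for mt-Nd4l, 0.82 for mt-Atp6, 0.36 for mt-Co2 and 0.03 for mt-Co3. The rRNAs mt-Rnr2 and mt-Rnr1 rose by 1.46 (SE 0.07) and 1.02 (SE 0.05) on the log2 scale of the counts.

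Nuclear-encoded genes of the same organelle were more often lower than higher. Of 88 nuclear genes of the respiratory chain tested, 4 were higher (4.55%) and 38 were lower (43.2%). Over all genes tested the shares were 6.8% and 8.78%, and in quintile 5 by mean CPM, the genes of highest level, 14.5% and 29.3%. The median log2 change of the respiratory chain genes was -0.15, which was -0.22 without mouse 2. These genes are described by their shares of counts next. They took 1.04%, 1.02% and 1.20% of the counts in Tru4 and 1.29%, 1.28% and 1.52% in Tru70, lower in Tru4 in 3 of 3 mice. Atp5a1, the alpha subunit of ATP synthase, fell by 0.28 on the log2 scale (SE 0.04, edgeR adjusted p = 2.22e-06). For Atp5g3 the log2 change was -0.11 (edgeR adjusted p = 0.118). Of the 76 mitochondrial ribosomal protein genes tested, 4 were higher (5.26%) and 18 lower (23.7%). Their median was -0.06, which was -0.16 without mouse 2 and -0.03 without mouse 3.

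Genes of the cytosolic ribosome were among the largest falls. Of 84 ribosomal protein genes, 79 passed the filter, 5 were higher (6.33%) and 27 were lower (34.2%), beside 6.8% and 8.78% of all genes tested. In quintile 5 by mean CPM, the genes of highest level, 29.3% were lower. The median log2 change of the ribosomal protein genes was -0.16, and 7 of them fell at least 2-fold. Rpl36, of the large subunit, was at 15.9, 14.8 and 13.3 CPM in Tru4 and at 48.7, 39.1 and 45.3 CPM in Tru70 (log2 change -1.56 ± 0.14 SE, edgeR adjusted p = 3.26e-09). Rpl11, also of the large subunit, was at 11.2, 10.9 and 10.6 CPM in Tru4 and 31.2, 26.2 and 24.2 CPM in Tru70 (log2 change -1.28). In both genes, which were chosen for the size of their fall, the groups were far apart. Among the most abundant members, Rpl8 and Rps3 fell by 0.56 and 0.18 on the log2 scale, while Rpl4 rose by 0.35. Outside the rule for named genes, and chosen after their values were seen, Rpl41 and Rpl32 fell by 1.03 and 1.06, and Rps2 and Rpl22l1 rose by 0.81 and 1.66. Among the 32 members with a longest transcript of up to 1 kb, 14 were lower, and among the 47 longer members 13 were lower.

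Ribosomal protein genes have many processed pseudogenes with nearly the same sequence, and only reads with a single alignment were counted. Among the largest falls, Gm3699, Rpsa-ps4, Rps18-ps1, Gm4342, Gm11951 and Rpl36-ps12 are annotated as processed pseudogenes. Gm3699 was at 5.94, 3.65 and 3.25 CPM in Tru4 and 11.7, 16.2 and 22.8 CPM in Tru70, a log2 change of -1.95 ± 0.27 (SE, edgeR adjusted p = 6.88e-06). Rpsa-ps4 and Rps18-ps1 fell by 1.56 and 1.35 on the log2 scale. How the reads divide between such copies and their parent genes was not tested. Polr2i, a subunit of RNA polymerase II, also stood among the largest falls, at 20.9, 17.2 and 16.2 CPM in Tru4 and 48.6, 46.0 and 36.3 CPM in Tru70 (log2 change -1.24 ± 0.13 SE). Over all 1205 processed pseudogenes tested, 59 were higher (4.90%) and 161 lower (13.4%), beside 6.8% and 8.78% of all genes tested. Their share of counts was 2.43% ± 0.077 in Tru4 and 2.95% ± 0.101 in Tru70 (SD, n = 3). Pseudogenes also stood among the largest rises. Gm12164 rose by 4.46 on the log2 scale of counts, but its change was -0.30 on the scale of log2(RPKM + 1).

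Some nuclear long RNAs rose. Malat1, a nuclear lincRNA on chromosome 19 that ends in a folded structure rather than a poly(A) tail, was at 238, 280 and 335 CPM in Tru4 and 69.6, 53.4 and 74.0 CPM in Tru70 (log2 change 2.14 ± 0.08 SE, edgeR adjusted p = 1.95e-16). Its neighbour Neat1, the scaffold of paraspeckles, was at 64.0, 42.0 and 57.1 CPM beside 67.8, 42.1 and 52.1 CPM, with a log2 change of 0.04 (SE 0.10, edgeR adjusted p = 0.844). Of 11 nuclear-retained and structured RNAs tested, 4 were higher (36.4%) and 1 was lower (9.09%), beside 6.8% and 8.78% of all genes tested. The antisense transcript Kcnq1ot1, which silences imprinted genes, was higher, at 4.66, 4.09 and 3.90 CPM beside 0.737, 1.04 and 0.841 CPM, and Snhg8, a host gene of small nucleolar RNAs, was lower with a log2 change of -0.62. Both were named outside the rule, after their values were seen.

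Over lincRNAs as a whole, 216 of 3543 were tested, 9 were higher (4.17%, below the 6.8% of all genes tested) and 2 lower. Their median log2 change was 0.59 and, without the mouse as block, 0.37. It was -0.05 on log2(RPKM + 1), where the median of all 7161 genes tested was -0.15. Their share of counts was 0.131% ± 0.0158 in Tru4 and 0.0993% ± 0.00687 in Tru70 (SD, n = 3). The medians were 0.66 for 237 antisense genes, 1.13 for 123 genes of the TEC class (transcripts awaiting experimental evidence) and 0.49 for 160 processed transcripts, with 7, 4 and 4 genes higher. These counts are 2.95%, 3.25% and 2.5% of the genes tested, again below the 6.8% of all genes. Without the mouse as block the medians of antisense and TEC genes were 0.26 and 0.71, on log2(RPKM + 1) they were -0.12 and -0.10, and without mouse 2 the antisense median was 0.42. Of the tested lincRNA, antisense, TEC and processed transcript genes, 2, 5, 6 and 1 had no read in any Tru70 library. Those passed the filter through the Tru4 libraries alone. In quintile 1 of all tested genes by mean CPM, described below, the median was 0.61. It was 0.22 for those with reads in all 6 libraries.

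**Figure D3:**
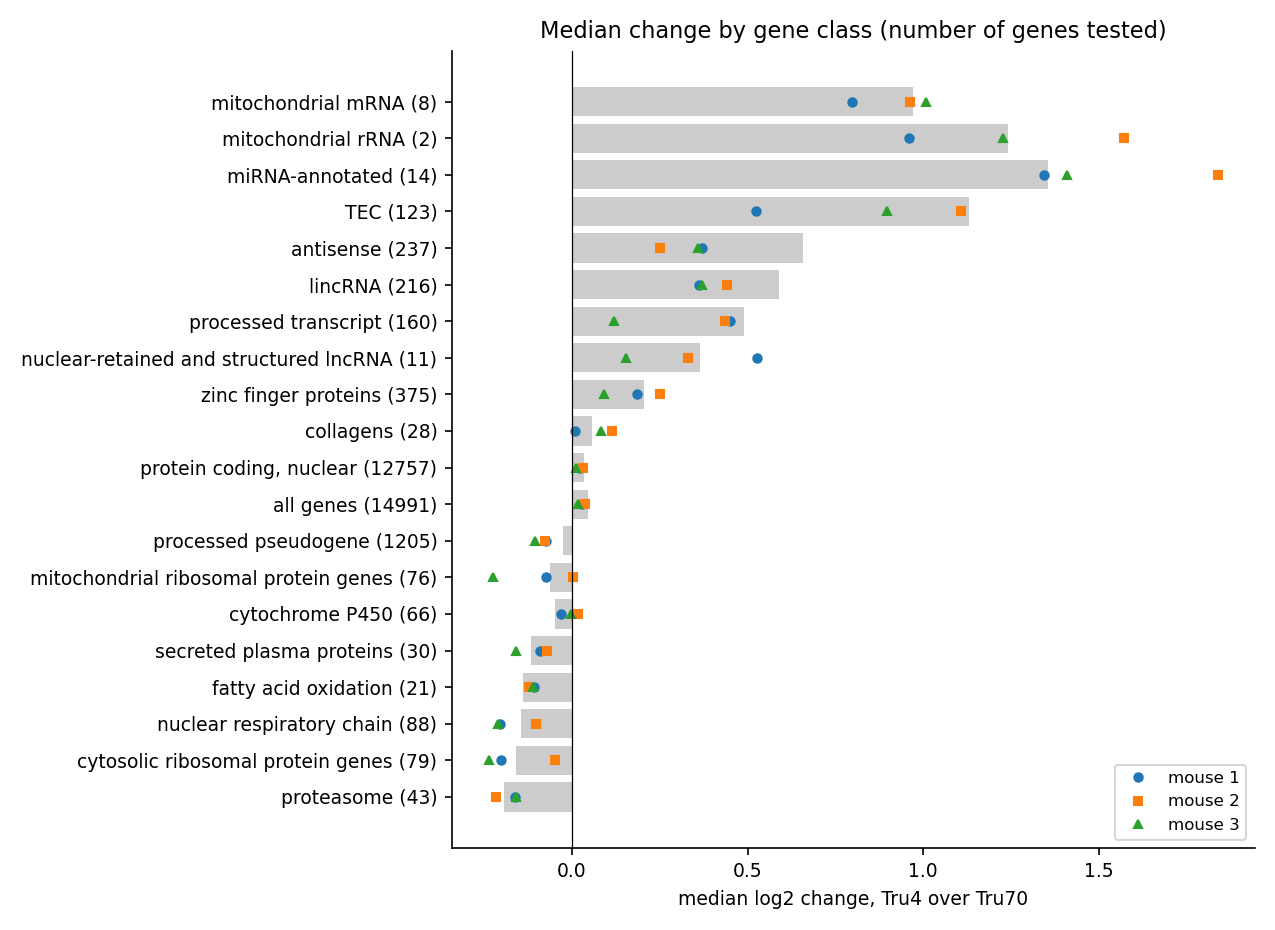
Median log2 change from Tru70 to Tru4 input for 20 gene classes, with the number of genes tested in parentheses. Bars are medians of the edgeR fit and points are medians within each mouse from log2 CPM with a prior count, so that points lie nearer to 0 in classes of low level. Mitochondrial and miRNA-annotated genes lie to the right and proteasome, ribosomal protein and respiratory chain genes to the left.

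Base composition went with the direction of change. When the tested genes were divided into 10 equal groups (deciles) by exonic GC content, the median log2 change was 0.35 in decile 1 (31.0% to 41.3% GC), 0.22 in decile 2 and 0.12 in decile 3, and it was lowest at -0.10 in decile 9 (55.2% to 57.5% GC). In decile 1, 285 of 1496 genes were higher (19.1%) and 11 lower (0.735%). In decile 9, 44 of 1495 were higher (2.94%) and 246 lower (16.5%). Over all genes tested the shares were 6.8% and 8.78%. Each of the 3 mice gave a positive median in decile 1, between 0.31 and 0.34. Among 7248 nuclear protein-coding genes with a mean of at least 10 CPM, the median went from 0.26 in decile 1 to -0.17 in decile 8. On log2(RPKM + 1) the median of decile 1 was 0.09, beside -0.15 over all genes. Across the 7243 of these genes with a GC value, Spearman's rho of the log2 change was -0.39 with GC content, 0.32 with length and -0.16 with mean CPM. Over all 14954 tested genes with a GC value it was -0.26, 0.13 and -0.30, so that length had the weakest and mean CPM the strongest relation there. Genes share libraries and are not independent replicates.

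Transcript length also went with the change, with 1 exception at the short end. The 317 tested genes with a longest transcript over 10 kb had a median of 0.25, but -0.13 on log2(RPKM + 1), beside -0.15 over all genes. Of the 317, 51 were higher (16.1%) and 6 lower (1.89%), beside 6.8% and 8.78% of all genes tested. The median was 0.04 from 1 to 10 kb and -0.05 from 0.5 to 1 kb. Without the mouse as block these were 0.0055 and -0.13. For the 601 genes up to 0.5 kb it was 0.05, and -0.014 without the block, but it was -0.39 in the 16 of them that are nuclear, protein-coding and at a mean of at least 10 CPM. Within these better expressed genes, both properties could be seen side by side. From 1 to 10 kb, the median was 0.15 in the 3 lowest GC deciles and -0.15 in the 3 highest. Over 10 kb it was 0.23 and 0.12, in 79 and 24 genes. Among long genes, Zbtb20, a zinc finger repressor of the fetal liver gene Afp, was at 133, 137 and 105 CPM in Tru4 and 60.9, 61.5 and 43.5 CPM in Tru70 (log2 change 1.21 ± 0.08 SE, edgeR adjusted p = 2.49e-11). Zfhx3, a homeobox factor, rose by 1.85 (SE 0.18). Of 375 zinc finger genes tested, 24 were higher (6.4%, near the 6.8% of all genes tested) and 3 lower (0.8%, beside 8.78%). Their median was 0.21, 0.13 without the mouse as block and -0.09 on log2(RPKM + 1).

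**Figure D4:**
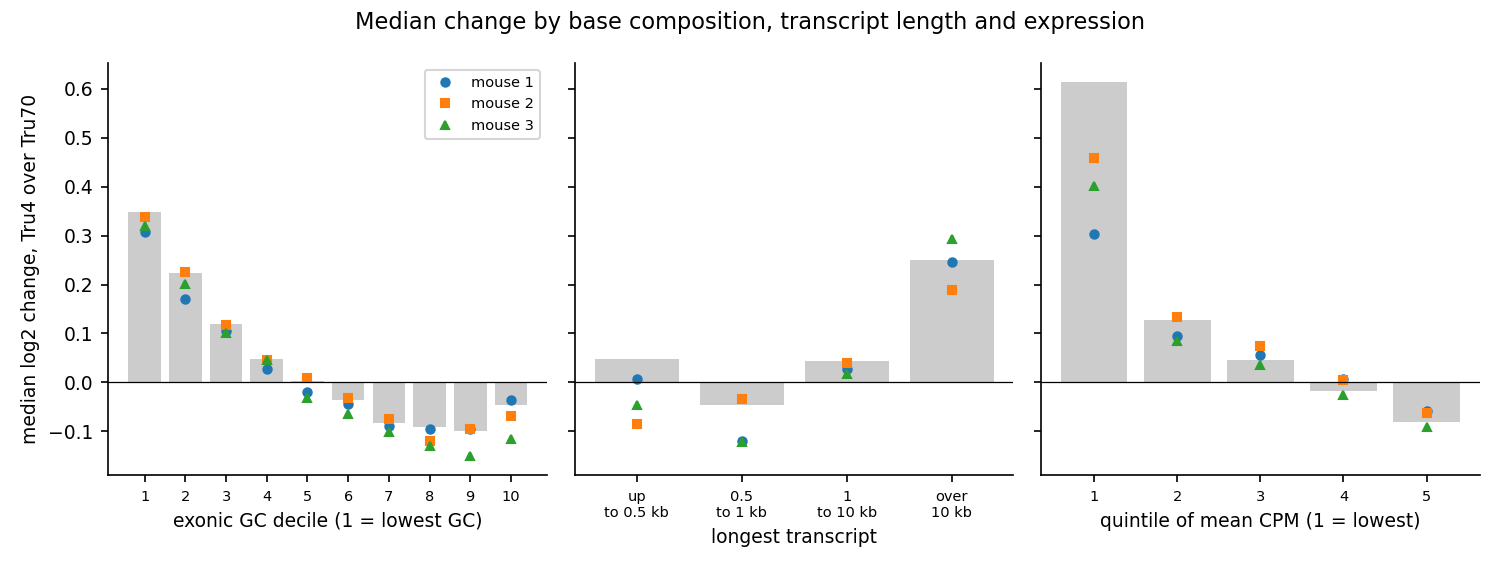
Median log2 change from Tru70 to Tru4 input by decile of exonic GC content, by length of the longest transcript and by quintile of mean CPM. Bars are medians of the edgeR fit and points are the 3 mice, and the bars go from 0.35 to -0.05 over GC content, reach 0.25 over 10 kb and go from 0.61 to -0.08 over expression.

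The level itself went with the change. In quintile 1 of genes by mean CPM (0.171 to 1.65 CPM) the median was 0.61, which was 0.23 without the mouse as block and -0.11 on log2(RPKM + 1). In this quintile 24 genes were higher (0.80%) and 1 lower (0.033%), both below the 6.8% and 8.78% of all genes tested. Of these 2999 genes, 35 had no read in any Tru70 library. Such genes passed the filter through the Tru4 libraries. Over the genes of this quintile that had reads in all 6 libraries, 1751 in number, the median was 0.22. In quintile 5 (from 40.8 CPM) it was -0.08, with 436 higher (14.5%) and 877 lower (29.3%).

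More genes were detected at 4 ng. At least 1 read was found for 19906, 19863 and 19631 genes in the Tru4 libraries and for 15957, 15577 and 16082 genes in the Tru70 libraries. All Tru4 libraries lay above all Tru70 libraries, by 3928 genes on average. When each library was thinned to the smallest total, 25797283 counts, the difference was 3595 genes (19410 ± 226 and 15815 ± 276, SD, n = 3). For genes with at least 5 reads, the difference was 1838 before thinning and 1208 after it. The paper gives a higher rate of duplicate read pairs for the Tru70 than for the Tru4 input libraries. Thinning evens the totals but not the numbers of distinct fragments, and the part of duplicates in this difference was not tested. The difference lay in genes with few reads, since 2464 to 3243 genes had 1 to 4 reads in Tru4 and 650 to 796 in Tru70, while the numbers of genes with 30 to 99 reads were 2215 to 2392 and 2250 to 2360. Of the genes in the files, 904 had reads in all 3 Tru4 and no Tru70 library, and 1 had the reverse. Their median level was 0.142 CPM, where 3 counts in a library are worth 0.0660 to 0.116 CPM. The 904 genes are 1.89% of the 47729 genes in the files. Among them, 291 are protein-coding, which is 1.34% of that class, 131 are processed pseudogenes (1.96%) and 62 are lincRNAs (1.75%), near the share of all genes. The 137 TEC genes and 134 antisense genes are 5.68% of their classes in either case. The potassium channel gene Kcnj15 had 1.05, 0.924 and 0.679 CPM in the Tru4 libraries. The TEC gene Gm45110 had 1.09, 0.550 and 1.33 CPM.

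**Figure D5:**
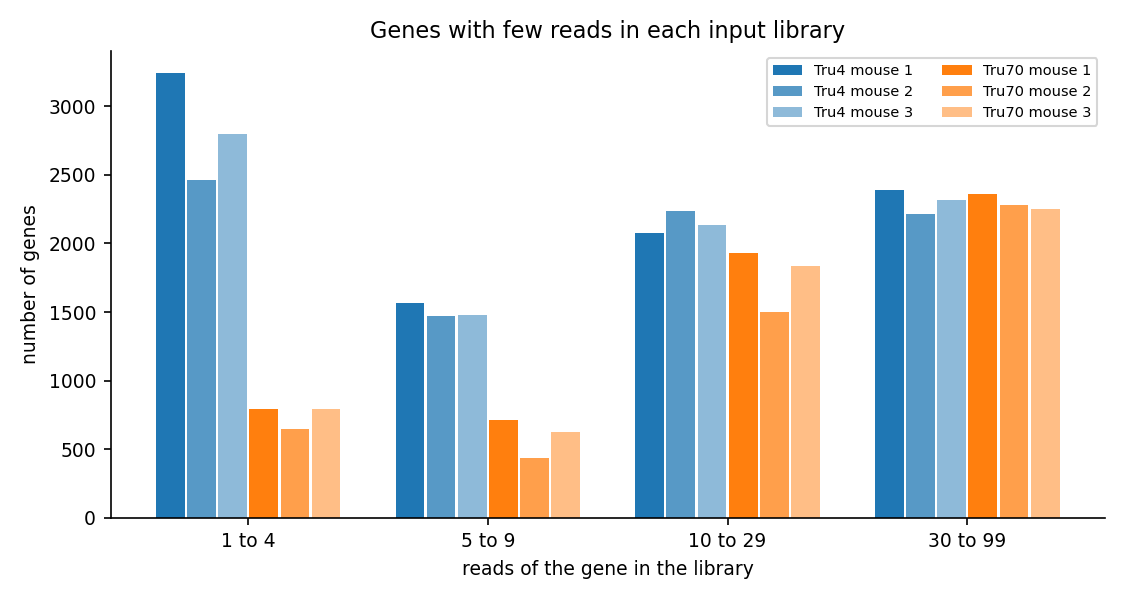
Number of genes (vertical axis, from 0) with 1 to 4, 5 to 9, 10 to 29 and 30 to 99 reads in each of the 6 input libraries. Tru4 libraries exceed Tru70 libraries for genes with 1 to 4 reads, 2464 to 3243 against 650 to 796, and are level with them at 30 to 99 reads.

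Hepatocyte genes differed by small amounts. Of all genes tested, 6.8% were higher and 8.78% lower, and in quintile 5 by mean CPM, the genes of highest level, 14.5% and 29.3%. Of 30 secreted plasma protein genes, 8 were higher (26.7%) and 19 lower (63.3%), with a median log2 change of -0.12. Alb, albumin, was at 131988, 146382 and 136326 CPM in Tru4 and at 116499, 130444 and 124779 CPM in Tru70 (log2 change 0.19 ± 0.01 SE, edgeR adjusted p = 1.04e-13). Apoe, a lipid carrier, fell by 0.06 on the log2 scale, and Ahsg, fetuin A, had a log2 change of -0.05 (edgeR adjusted p = 0.0959). Of 21 genes of fatty acid oxidation, 2 were higher (9.52%) and 10 lower (47.6%). Acaa1b, a peroxisomal thiolase, was at 690, 778 and 724 CPM in Tru4 and 934, 1109 and 1071 CPM in Tru70, which is a log2 change of -0.48. Of 66 cytochrome P450 genes tested, 9 were higher (13.6%) and 18 lower (27.3%), near the shares in quintile 5. Cyp3a11 rose by 0.20 and Cyp1a2 fell by 0.36 on the log2 scale. Of 43 proteasome genes tested, 1 was higher (2.33%) and 15 lower (34.9%), with a median of -0.19, which was -0.10 without mouse 2. Selenop, the selenium carrier of plasma, rose by 0.40, and Gpx1, glutathione peroxidase, fell by 0.43.

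The genes often used as references did not share 1 direction. Of 14 such genes, 2 were higher (14.3%) and 6 lower (42.9%). In quintile 5 by mean CPM 14.5% and 29.3% of genes were. Eef1a1, an elongation factor, was at 2195, 2094 and 1899 CPM in Tru4 and 2662, 2646 and 2457 CPM in Tru70 (log2 change -0.30 ± 0.03 SE, edgeR adjusted p = 5.34e-08), and the groups did not overlap. B2m, the light chain of MHC class I, rose by 0.22. Gapdh had only 2.49 to 4.44 CPM in any library. Rpl22, the tagged gene, had a log2 change of -0.08 (edgeR adjusted p = 0.631). Gfi1, whose locus carries the Cre, had 0.288 CPM in a single Tru4 library and 0 reads in the other 5, which allows up to 0.0660 to 0.116 CPM.

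Few markers of other liver cells passed the test. Of the 15 sinusoidal endothelial and the 15 tested T, NK and B cell genes, none passed the test (edgeR, adjusted p under 0.05), while 2 and 1 genes had an unadjusted p under 0.05, and DESeq2, which tested 15 and 16 genes of these lists, called none either. limma on log2(RPKM + 1) called none of the 7 and 2 genes of them that it tested. Of 14 Kupffer cell genes, 1 was higher (7.14%) and 3 lower (21.4%), beside 6.8% and 8.78% of all genes tested. Among the lower ones was Cd5l, a scavenger receptor protein of macrophages, at 77.6, 81.8 and 91.9 CPM in Tru4 and 120, 104 and 110 CPM in Tru70. Of 8 erythroid genes tested, 3 fell (37.5%), beside 8.78% of all genes tested and 29.3% in quintile 5 by mean CPM. Their median log2 change was -0.51, -0.47 and 0.20 within mice 1 to 3, so mouse 3 went the other way. Hba-a2, an alpha globin, was at 627, 529 and 502 CPM in Tru4 and 1011, 807 and 663 CPM in Tru70 (log2 change -0.54 ± 0.05 SE). The summed erythroid level was 1744, 1507 and 1366 CPM in the Tru4 libraries of mice 1 to 3 and 2549, 2182 and 1571 CPM in Tru70. It was lower in Tru4 in 3 of 3 mice, though the ranges over the mice overlapped. The summed level of the endothelial genes was 533, 516 and 478 CPM in Tru4 and 568, 555 and 548 CPM in Tru70, again lower in 3 of 3 mice, with groups that did not overlap. Both amounts were aliquots of the same RNA of each mouse, and the cause of these differences was not tested.

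The same change of amount in the IP libraries was set beside these values. In a fit over 12 TruSeq libraries of both fractions, 431 genes were higher in Tru4 in IP (2.59% of 16644) and 275 lower (1.65%). The input calls above came from a separate fit of the 6 input libraries, so these numbers of genes cannot be compared. The IP changes below are those of the fit over 12 libraries. The median log2 change of the mitochondrial messages was 0.72, beside 0.97 in input, and that of the GC decile 1 was 0.48, beside 0.35. Malat1 changed by 1.31 and mt-Nd6 by 3.23 in IP. No gene passed the test of a difference between the fractions (edgeR interaction term, adjusted p under 0.05). In this test, 813 of 16644 genes (4.88%) had an unadjusted p under 0.05. The fit gave each mouse 1 effect for both fractions and did not pair the amounts within mouse and fraction. Differences between mice in how IP and input differ thus counted as error. The lack of calls therefore does not show that both fractions changed alike.

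The spread between mice was smaller at 4 ng. The median SD of log2 CPM over the 3 mice was 0.318 in Tru4 and 0.623 in Tru70 in expression quintile 1, and 0.133 and 0.165 in quintile 5. In quintile 5, 38.2% of genes had the larger SD in Tru4, and in quintile 1 20.1%. After thinning, the medians were 0.332 and 0.628 in quintile 1. Thinning did not even out the higher rate of duplicate read pairs that the paper gives for the Tru70 input libraries. With the fractions as labelled, quintile 5 had 0.428 in Tru4.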

How the data were processed

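Input libraries of 3 mice at 2 RNA amounts were compared. The authors trimmed reads with Trimmomatic and the FASTX Toolkit, aligned them to mm10 (GRCm38) with TopHat and deposited exon counts per Ensembl gene, as whole numbers without normalization. Counts leave out reads with several alignments or several genes. The methods name HTSeq and Bedtools for counting, and the strand setting is not given in the sources used here. The RPKM values deposited by the authors came from another counting step and were used as an alternative only.

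Genes were tested with edgeR 4.0.16 (R 4.3.3, quasi-likelihood, TMM, filterByExpr) with the mouse as block, on 14991 of 47729 genes. limma 3.58.1, on log2(RPKM + 1), and DESeq2 1.42.0 were alternatives. The script was tested on simulated data, in which 100 well-counted genes were changed 1.5-fold and 100 were changed 2-fold. It recovered 45% and 81% of them, with 14 false calls. A list without calls can therefore still hold changes of this size. Gene classes, lengths and base composition were taken from the GENCODE M21 annotation (GRCm38), where 47310 identifiers were found and 419 were not. No gene reached the interaction threshold, so none was named by it. Replicate numbers mark the mouse. Deviations from the group mean correlated at 0.662, 0.561 and 0.741 between amounts for the same mouse and from -0.528 to -0.0598 for other mice (7688 genes). Totals were 25797283 to 45466334, so 3 counts are worth 0.0660 to 0.116 CPM, and such floors cover counting error only.

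Named genes were the 10 largest changes in each direction with a mean of at least 10 CPM and the same direction in 3 mice, the 4 most abundant of each list, the 2 most abundant of each biotype, the 3 most abundant genes with reads at a single amount, and the checked genes Gfi1, Rpl22 and Gapdh. Genes of the mitochondrial, ribosomal protein, erythroid and nuclear RNA lists beyond those 4 were named after their values were seen. Some genes that the rule names are not reported here. The libraries and the lists were chosen with earlier results of these data known.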

Additional observations from a re-analysis of the deposited data

Results flagged for a closer look

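In 4 gene lists, the median log2 change from Tru70 to Tru4 had the opposite sign in IP and in input within every mouse. The difference was not tested over the lists. No single gene passed the edgeR interaction test (adjusted p under 0.05), while 813 genes had an unadjusted p under 0.05. That test did not pair the amounts within mouse and fraction, so its lack of calls does not show equal changes. The replication-dependent histone genes, whose messages lack poly(A) tails, had a median of 0.86 in IP (21 genes tested) beside -0.50 in input (12 genes tested). Without mouse 2 or mouse 3 the input median was 0.07 and 0.35. The stellate cell and fibroblast genes had a median of 0.22 in IP beside -0.06 in input, and the cholesterol synthesis genes 0.016 beside -0.09. For selenoproteins, the medians of the fit were -0.015 in IP and -0.07 in input, and it was the medians within the mice that differed in sign.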

How the results depend on the processing

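Without the replicate block, 65 genes were higher and 82 lower, 39 and 23 of them at least 2-fold, and the medians were 0.30 for GC decile 1, 0.37 for lincRNAs, 0.19 over 10 kb, -0.014 up to 0.5 kb and -0.0012 for nuclear protein-coding genes. With the fractions as labelled, the counts were 0 in each direction and fold class, the difference in detected genes was 4438, the mitochondrial messages gained 0.664 percentage points and nuclear protein-coding genes changed by -1.497, and the medians were 0.40 (GC decile 1), 0.021 (GC decile 10), 0.68 (lincRNAs), 0.35 (over 10 kb), -0.025 (up to 0.5 kb), -0.036 (mitochondrial mRNA), 0.29 (mitochondrial rRNA), 0.35 (histones), 0.94 (erythroid) and 0.021 (reference genes). The difference in spread in quintile 5 was then 0.26. Leaving out 1 mouse at a time gave 717 to 900 genes higher and 908 to 1067 lower, lincRNA medians of 0.51 to 0.54, histone medians of -0.68 to 0.35, cytochrome P450 medians of -0.025 to 0.030, and, with thinning, 3500.0 to 3750 more detected genes (3536 without mouse 1). DESeq2 gave 299 genes at least 2-fold higher, and moved the median of all genes from 0.05 to 0.26. limma on log2(RPKM + 1) gave 363 genes higher, 93 and 107 at least 2-fold higher and lower, a change of -0.30 for Gm12164, and medians of 0.086 (GC decile 1), -0.054 (lincRNAs), -0.13 (over 10 kb), -0.13 (up to 0.5 kb), -0.14 (1 to 10 kb), 0.82 (mitochondrial mRNA), -0.11 (quintile 1), -0.12 (antisense), -0.10 (TEC), -0.15 (nuclear protein-coding), -0.090 (zinc fingers) and -0.25 (Kupffer cell). Shares of summed RPKM moved by 7.20 and -7.87 points for the mitochondrial and nuclear messages. In counts, where the nuclear share moved by -3.60 points, leaving out mitochondrial genes gave -0.668. With library totals the GC decile 1 median was 0.32. With no filter on low counts, the medians were 1.86 (lincRNAs), 1.91 (mitochondrial mRNA), 1.35 (0.5 to 1 kb), 0.95 (processed pseudogenes), 1.42 (histones) and 0.023 (solute carriers). Over 10 kb the median was 0.17 by union of exons. Chosen after seeing the data, nuclear protein-coding genes from 10 CPM gave 0.26 (GC decile 1), 0.17 (over 10 kb), -0.39 (up to 0.5 kb) and -0.028 (1 to 10 kb), and genes with reads in all 6 libraries 0.31 (GC decile 1) and -0.079 (up to 0.5 kb). With at least 5 reads the difference in detected genes was 1838, and 1208 after thinning. The causes were not tested. The comparison rests on 3 mice, and depth limits genes near 3 counts.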

Other observations

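The major urinary protein genes, a cluster of nearly identical genes on chromosome 4 that code for pheromone carriers, differed among themselves. Of 11 tested, 4 were higher in Tru4 (36.4%, beside 6.8% of all genes tested) and 0 lower. Mup10 was at 181, 55.9 and 6.98 CPM in Tru4 and at 62.3, 17.2 and 4.49 CPM in Tru70 (log2 change 1.41 ± 0.14 SE, edgeR adjusted p = 3.12e-08), and the mice differed more than the amounts did. Mup3 rose by 0.17, and Mup20 had a log2 change of -0.33 (edgeR adjusted p = 0.115). On log2(RPKM + 1), Mup10 changed by 0.48. Only reads with a single alignment were counted in these copies.

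Of 28 collagen genes tested, 2 were higher (7.14%, near the 6.8% of all genes tested) and 0 lower, and Col18a1, the source of endostatin, rose by 0.30 (SE 0.04, edgeR adjusted p = 1.43e-06). The metallothionein Mt1, which binds zinc, was at 19.6, 85.5 and 119 CPM in Tru4 and 26.6, 125 and 210 CPM in Tru70 (log2 change -0.58, edgeR adjusted p = 1.5e-05), so it differed more between mice than between amounts.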
